A study of Saccharomyces cerevisiae with 6 samples.

Results

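The genes of ergosterol synthesis, esterification and sterol uptake were followed in a wine yeast without KNR4 and in its parent. They are 30 genes picked by name, none of them on chromosome XII, and all 30 were found by symbol or systematic name among the 6388 genes of the authors' tables. No measured value entered the choice rule. There are 20 genes for the synthesis route itself and 10 for electron donors, regulators, uptake, esterification, ester hydrolysis and sterol binding. Ratios were tested for 28 of the 30, within a fit over 4289 genes. The 2 untested genes were AUS1, with a ratio on only 1 stationary array, and TGL1, whose printing well carried an unreliable name.

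Ergosterol is the main sterol of the yeast plasma membrane, where it has the place that cholesterol has in animal cells. It is built from acetyl-CoA through mevalonate, isopentenyl diphosphate, farnesyl diphosphate and squalene, and the steps after squalene draw on molecular oxygen, NADPH and haem-containing enzymes. Fermenting yeast therefore makes most of its sterol while oxygen lasts, stores part of it as esters, and can take sterol up when synthesis stops, under the control of factors such as Upc2.

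Each of the 6 spotted two-colour arrays held total RNA of the strain EKD-13 and of its parent EC1118. EC1118 is an industrial wine strain of Saccharomyces cerevisiae, and EKD-13 carries a deletion of both copies of KNR4 (also named SMI1) in that background. Both strains fermented 1 L of the synthetic medium MS300 at 28 °C and were sampled at stationary phase, with 70 g of CO2 released, or at mid-exponential phase, with 10 g. Each phase had 3 arrays, each with a separate pair of fermentations. The phases shared cultures, however: array 3 sampled the same mutant and wild-type fermentations in both phases, array 1 the same mutant and array 2 the same wild-type fermentation. The Cy3 label marked the mutant on array 2 of each phase and the wild type on the other arrays. The mutant is represented by a single strain, so the deletion and anything else that sets EKD-13 apart from EC1118 cannot be told apart. Every value below is a log2 ratio of mutant over wild type, the mean of a gene's spots on an array, so a negative value means less transcript in the mutant's share of the array. The arrays measured RNA of whole cultures, in which fewer cells of a kind and less RNA per cell cannot be told apart.

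Across the series, 53.1 to 85.6% of the 15488 spots carried a ratio on a given array, and precision is limited by there being 3 arrays a phase. KNR4 stood at -1.74 in stationary and -1.89 in mid-exponential phase in the authors' deposited table, and its only ratio on an array was -4.51. Of 28 marker genes of haploid and sporulating cells, 26 were found, 5 could be tested by limma, and none passed in either phase there or in the authors' deposited table. Of all genes tested by limma, 4.76% passed in stationary and 0.21% in mid-exponential phase, so none of 5 says little about the kinds of cell. The authors' deposited table had 2.14% of all genes lower and 2.04% higher in stationary phase, and 4.63% and 5.67% in mid-exponential phase. The 359 tested genes of chromosome XII stood higher in the mutant, with a median of their mean ratios of 0.73 in stationary and 0.68 in mid-exponential phase, against -0.02 and -0.01 over all genes tested. The synthesis genes were read with little scatter within an array: the 2 spots of a gene differed by a median of 0.053 on stationary and 0.040 on mid-exponential arrays. The widest such gaps were 0.61, for ERG1 on stationary array 2, and 0.32, for HMG1 on mid-exponential array 2.

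All 20 synthesis genes averaged below 0 in both phases, yet none of them passed the test in either. Over all genes tested, 51.5% averaged below 0 in stationary and 51.8% in mid-exponential phase. The median of the synthesis genes' mean ratios was -0.42 in stationary and -0.48 in mid-exponential phase. In stationary phase that position came from a single array: without array 2, 7 of 19 synthesis genes averaged below 0 and their median was 0.11. Of all genes, 47.5% averaged below 0 without that array. In mid-exponential phase 18 of 20 averaged below 0 without array 3, with a median of -0.26, and ERG6 and ERG7 were then slightly above 0. All 20 averaged below 0 without array 1 or array 2, with medians of -0.83 and -0.36. Of all genes, 50.8, 52.3 and 51.5% averaged below 0 without mid-exponential arrays 1, 2 and 3. Over the 28 tested sterol genes the median was -0.42 in stationary and -0.44 in mid-exponential phase. It became 0.07 without stationary array 2, -0.73 without mid-exponential array 1 and -0.25 without mid-exponential array 3.

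**Figure D1:**
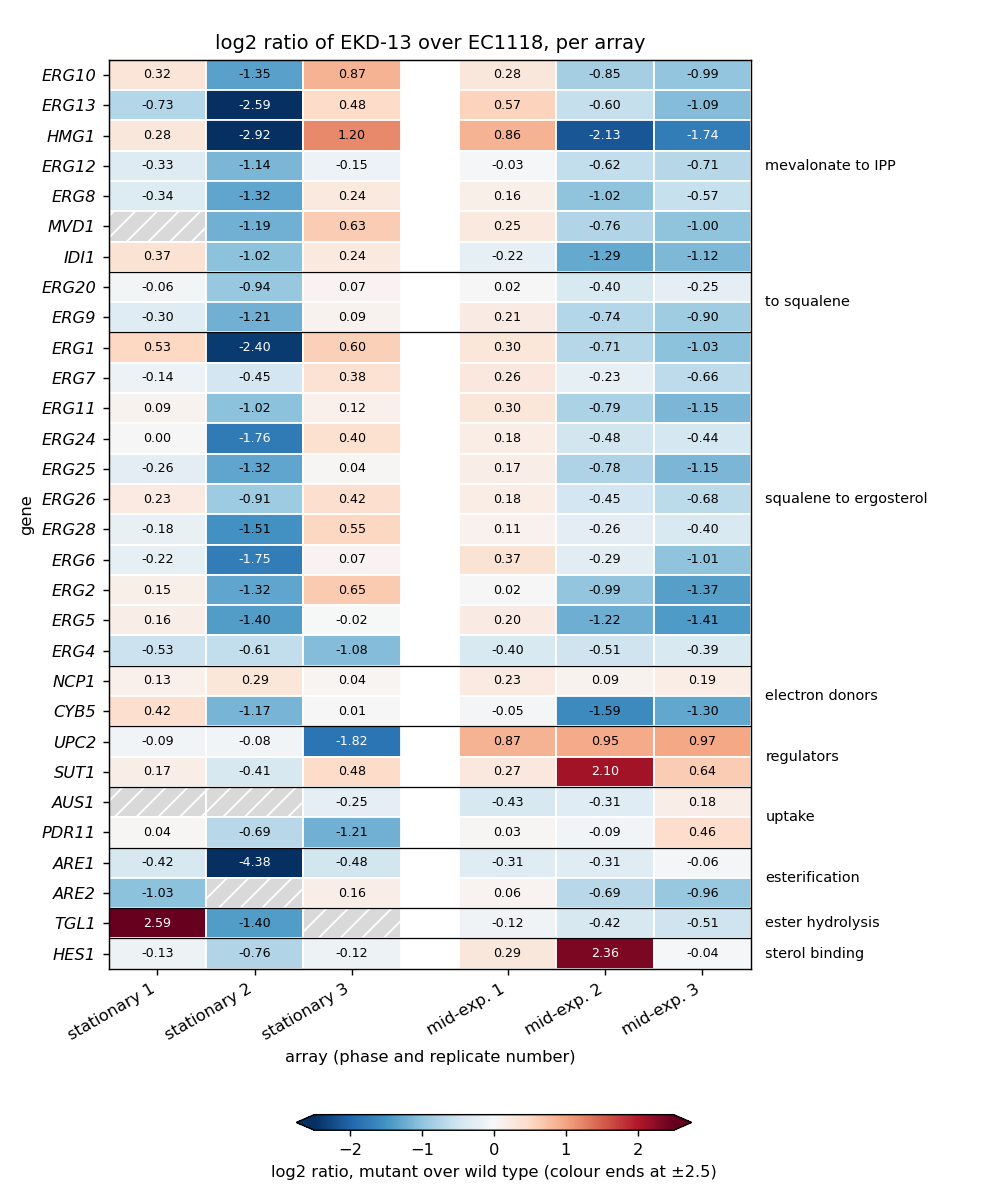
Each cell gives the log2 ratio of EKD-13 over EC1118 for 1 gene (rows, grouped by role) on 1 array (columns, 3 stationary arrays left and 3 mid-exponential arrays right); blue is below 0, red is above 0, and hatched cells had no ratio. Stationary array 2 and mid-exponential arrays 2 and 3 are blue through the synthesis genes. ERG4, ERG12 and ARE1 are below 0 on all 6 arrays, though ERG12 only at -0.03 on mid-exponential array 1.

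The mevalonate branch opens with ERG10 (YPL028W), the acetyl-CoA acetyltransferase, and ERG13 (YML126C), which makes HMG-CoA. ERG10 stood at 0.32, -1.35 and 0.87 on stationary arrays 1, 2 and 3, against 0.28, -0.85 and -0.99 on the mid-exponential arrays. ERG13 had -0.73, -2.59 and 0.48 on the stationary arrays and 0.57, -0.60 and -1.09 on the mid-exponential arrays. Both genes were lowest on stationary array 2 and highest on mid-exponential array 1. HMG1 (YML075C), HMG-CoA reductase, catalyses the step at which the pathway is mainly controlled, and it swung most widely of the synthesis genes. Its ratios were 0.28, -2.92 and 1.20 on the stationary arrays, the first 2 from a single spot, and 0.86, -2.13 and -1.74 on the mid-exponential arrays. The limma means of HMG1 were -0.48 ± 0.89 in stationary and -1.00 ± 0.89 in mid-exponential phase (SE, n = 3 arrays each), with 95% intervals from -2.64 to 1.68 and from -3.17 to 1.16. Both intervals span 0.

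ERG12 (YMR208W), mevalonate kinase, was below 0 on all 6 arrays, at -0.33, -1.14 and -0.15 in stationary phase and -0.03, -0.62 and -0.71 in mid-exponential phase. ERG8 (YMR220W), phosphomevalonate kinase, had -0.34, -1.32 and 0.24 on the stationary arrays and 0.16, -1.02 and -0.57 on the mid-exponential arrays. MVD1 (YNR043W), mevalonate diphosphate decarboxylase, had no ratio on stationary array 1, -1.19 and 0.63 on the other stationary arrays, and 0.25, -0.76 and -1.00 on the mid-exponential arrays. These kinases and the decarboxylase again had their lowest stationary value on array 2. IDI1 (YPL117C), isopentenyl diphosphate isomerase, had 0.37, -1.02 and 0.24 on the stationary arrays and -0.22, -1.29 and -1.12 on the mid-exponential arrays. Its mid-exponential mean of -0.87 ± 0.58 (SD, n = 3) was 1.83-fold lower in the mutant, and the limma adjusted p was 0.334 (unadjusted 0.041).

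The route to squalene is made by ERG20 (YJL167W), farnesyl diphosphate synthase, and ERG9 (YHR190W), squalene synthase, which commits farnesyl diphosphate to sterols. ERG20 was the flatter of them, with -0.06, -0.94 and 0.07 on the stationary arrays and 0.02, -0.40 and -0.25 on the mid-exponential arrays. ERG9 had -0.30, -1.21 and 0.09 on the stationary arrays and 0.21, -0.74 and -0.90 on the mid-exponential arrays. In both genes stationary array 2 lay apart from the other stationary arrays, and mid-exponential array 1 was the only one of its phase above 0.

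Squalene is oxidised by ERG1 (YGR175C), squalene epoxidase, and closed into the first sterol by ERG7 (YHR072W), lanosterol synthase. ERG1 had 0.53, -2.40 and 0.60 on the stationary arrays and 0.30, -0.71 and -1.03 on the mid-exponential arrays. ERG7 had -0.14, -0.45 and 0.38 on the stationary arrays and 0.26, -0.23 and -0.66 on the mid-exponential arrays. Within stationary phase the epoxidase gene thus ranged over 3.00 log2 units and the lanosterol synthase gene over 0.83.

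ERG11 (YHR007C), the lanosterol demethylase that azole drugs inhibit, had 0.09, -1.02 and 0.12 on the stationary arrays and 0.30, -0.79 and -1.15 on the mid-exponential arrays. ERG24 (YNL280C), the sterol reductase of the next step, had 0.00, -1.76 and 0.40 on the stationary arrays and 0.18, -0.48 and -0.44 on the mid-exponential arrays. Both repeated the order of arrays seen upstream. The removal of methyl groups follows, by ERG25 (YGR060W), a sterol oxidase, ERG26 (YGL001C), a sterol dehydrogenase, and ERG28 (YER044C), a membrane scaffold for these enzymes. ERG25 had -0.26, -1.32 and 0.04 on the stationary arrays and 0.17, -0.78 and -1.15 on the mid-exponential arrays. The dehydrogenase gene ERG26 had 0.23, -0.91 and 0.42 on the stationary arrays and 0.18, -0.45 and -0.68 on the mid-exponential arrays. The scaffold gene ERG28 had -0.18, -1.51 and 0.55 on the stationary arrays and 0.11, -0.26 and -0.40 on the mid-exponential arrays. For all 3, stationary array 2 was at least 1 log2 unit below the other stationary arrays.

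ERG6 (YML008C), the sterol methyltransferase that gives ergosterol its extra methyl group, had -0.22, -1.75 and 0.07 on the stationary arrays and 0.37, -0.29 and -1.01 on the mid-exponential arrays. ERG2 (YMR202W), sterol isomerase, had 0.15, -1.32 and 0.65 on the stationary arrays and 0.02, -0.99 and -1.37 on the mid-exponential arrays. ERG5 (YMR015C), a cytochrome P450 desaturase, had 0.16, -1.40 and -0.02 on the stationary arrays and 0.20, -1.22 and -1.41 on the mid-exponential arrays. Their mid-exponential limma means were -0.31 ± 0.41 for ERG6, -0.78 ± 0.43 for ERG2 and -0.81 ± 0.42 for ERG5 (SE, n = 3), with adjusted p from 0.473 to 0.841.

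ERG4 (YGL012W), which encodes the sterol reductase of the last step, stood apart from the other synthesis genes in that its replicates lay close together. It had -0.53, -0.61 and -1.08 on the stationary arrays, against -0.40, -0.51 and -0.39 on the mid-exponential arrays. The -0.61 on stationary array 2 came from a single spot. All 6 values were below 0, and mid-exponential array 1 was as low as array 3. The limma mean was -0.74 ± 0.17 in stationary phase (SE, n = 3), 1.67-fold lower in the mutant, with a 95% interval from -1.15 to -0.33 and an adjusted p of 0.064 (unadjusted 0.0040). In mid-exponential phase it was -0.43 ± 0.17, 1.35-fold lower, with a 95% interval from -0.84 to -0.03 and an adjusted p of 0.329 (unadjusted 0.039). Under the alternatives fitted here the adjusted p of ERG4 in stationary phase stayed between 0.055 and 0.375, and it was 0.034 in the authors' deposited table.

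The synthesis genes other than ERG4 moved together from array to array. Their medians, ERG4 included, were -0.06, -1.32 and 0.31 on stationary arrays 1, 2 and 3 and 0.19, -0.72 and -1.00 on the mid-exponential arrays. Over all genes tested the medians were 0.05, -0.04 and 0.03 on the stationary arrays and 0.00, -0.03 and -0.01 on the mid-exponential arrays. All 20 were below 0 on stationary array 2 and on mid-exponential arrays 2 and 3, beside 52.5, 52.6 and 50.8% of all genes tested. A ratio under -0.5 was found on stationary arrays 1, 2 and 3 for 2 of 19, 19 of 20 and 1 of 20 synthesis genes, beside 20.5, 26.5 and 23.3% of all genes tested. On the mid-exponential arrays it was found for 0, 14 and 16 of 20, beside 10.2, 15.6 and 12.4% of all genes tested. The median range of a synthesis gene within a phase was 1.56 in stationary and 1.21 in mid-exponential phase, against 0.87 and 0.44 over all genes tested.

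**Figure D2:**
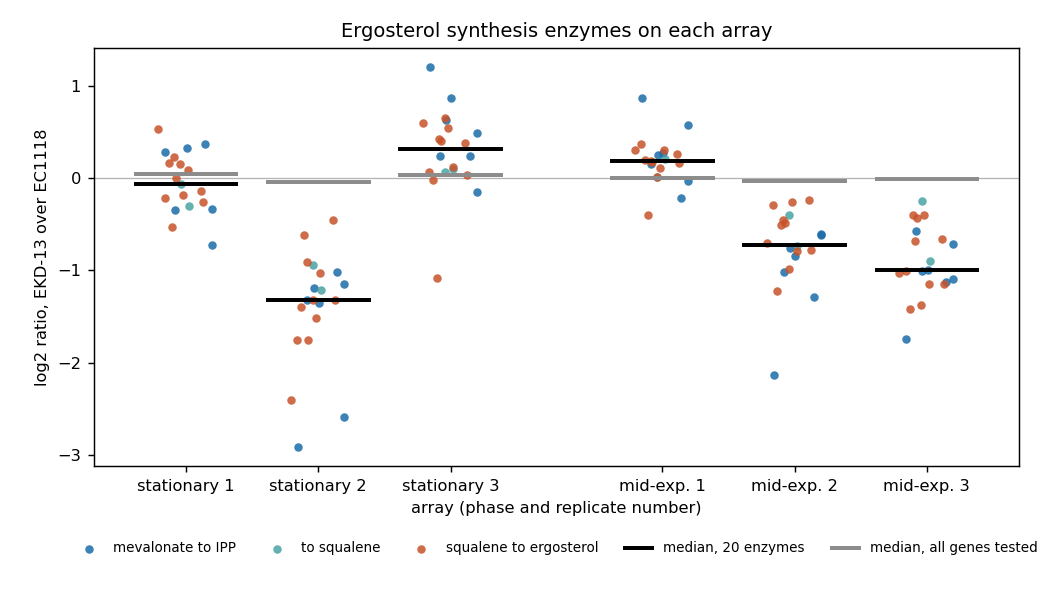
Points are the log2 ratios of EKD-13 over EC1118 of the 20 synthesis genes on each array, coloured by stretch of the route, with black bars at their median and grey bars at the median of all genes tested; the horizontal spread of points has no meaning. The black bars lie at -0.06, -1.32 and 0.31 on stationary arrays 1 to 3 and at 0.19, -0.72 and -1.00 on mid-exponential arrays 1 to 3, while the grey bars stay within 0.05 of 0.

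The order of the arrays was counted gene by gene, with counts chosen after the values had been seen and given as a description. Stationary array 2 was the lowest of its phase in 22 of the 26 sterol genes with all 3 ratios, and in 18 of 19 synthesis genes, where 43.4% of all such genes had it lowest. Mid-exponential array 1 was the highest in 22 of 28 sterol genes, and in 19 of 20 synthesis genes, against 36.1% of all such genes. Both orders held in 19 of 26 sterol genes, 18 of them synthesis genes, against 18.3% of the 3020 genes measured on all 6 arrays. With the added demand that stationary array 2 lay at least 1 log2 unit under the other stationary arrays and mid-exponential array 1 at least 0.5 above its own, 13 of 26 sterol genes remained, against 2.19% of all 3020. These were ERG10, ERG13, HMG1, IDI1, ERG1, ERG11, ERG24, ERG25, ERG26, ERG6, ERG2, ERG5 and CYB5. ERG4 showed neither order.

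Dye, fermentation set and vessel differed between these arrays. The mutant was in Cy3 on stationary array 2 and mid-exponential array 2 and in Cy5 on mid-exponential array 3, all of which had low synthesis genes. Per the labels, both RNAs came from fermentation set 1 on stationary array 1 and mid-exponential array 1, and from set 2 on stationary array 3 and mid-exponential arrays 2 and 3. Stationary array 2 set a mutant vessel of set 1 against a wild-type vessel of set 2. Stationary array 3 and mid-exponential array 3 sampled the same pair of fermentations, and the median of the synthesis genes was 0.31 in stationary and -1.00 in mid-exponential phase. With a dye term in the model the median of the 28 sterol genes was -0.57 in both phases. Only array 2 of each phase had the mutant in Cy3. The dye term therefore cannot tell dye from anything else particular to those arrays, and its median is not a value freed of dye. The part of dye, fermentation sets and vessels in the array order was not tested.

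The electron donors went different ways. NCP1 (YHR042W), the reductase that feeds electrons to the cytochrome P450 enzymes of the route, was above 0 on all 6 arrays, at 0.13, 0.29 and 0.04 in stationary and 0.23, 0.09 and 0.19 in mid-exponential phase. Its limma means were 0.16 ± 0.14 in stationary phase (SE, n = 3, adjusted p = 0.541) and 0.17 ± 0.14 in mid-exponential phase (adjusted p = 0.694). CYB5 (YNL111C), cytochrome b5, another electron donor of sterol synthesis, followed the synthesis genes. It had 0.42, -1.17 and 0.01 on the stationary arrays and -0.05, -1.59 and -1.30 on the mid-exponential arrays. The mid-exponential mean of CYB5 was -0.98 ± 0.82 (SD, n = 3), 1.97-fold lower in the mutant, with a limma adjusted p of 0.372 (unadjusted 0.049).

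UPC2 (YDR213W), the sterol-sensing activator of synthesis and uptake genes, stood above 0 on every mid-exponential array. UPC2 had -0.09, -0.08 and -1.82 on the stationary arrays, against 0.87, 0.95 and 0.97 on the mid-exponential arrays. The medians of the 20 synthesis genes on those mid-exponential arrays were 0.19, -0.72 and -1.00, so they varied where UPC2 did not. The mid-exponential values of UPC2 were nearly equal, and its low stationary mean rested on array 3, whose 2 spots gave -1.89 and -1.76. The limma mean was -0.67 ± 0.35 in stationary phase (adjusted p = 0.304) and 0.93 ± 0.35 in mid-exponential phase (SE, n = 3, adjusted p = 0.316, unadjusted 0.037), which is 1.91-fold higher in the mutant. The fit shares a single spread per gene between the phases, so the mid-exponential SE and p of UPC2 also carry its stationary scatter. The SD of its ratios was 1.00 in stationary and 0.05 in mid-exponential phase. SUT1 (YGL162W), a transcription factor that favours sterol uptake, had 0.17, -0.41 and 0.48 on the stationary arrays and 0.27, 2.10 and 0.64 on the mid-exponential arrays. Its mid-exponential mean was 1.00 ± 0.97 (SD, n = 3, limma adjusted p = 0.308), and both spots of array 2 were near the 2.10 that sets it.

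Uptake across the plasma membrane needs the ABC transporters AUS1 (YOR011W) and PDR11 (YIL013C). AUS1 had -0.25 on stationary array 3, the single one that measured it, and -0.43, -0.31 and 0.18 on the mid-exponential arrays. PDR11 had 0.04, -0.69 and -1.21 on the stationary arrays and 0.03, -0.09 and 0.46 on the mid-exponential arrays. In stationary phase the limma mean of PDR11 was -0.62 ± 0.26 (SE, n = 3), with a 95% interval from -1.25 to 0.01 and an adjusted p of 0.216. The values of neither transporter kept 1 sign over the 6 arrays.

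Sterols are stored as esters by the acyltransferases ARE1 (YCR048W) and ARE2 (YNR019W) and released by hydrolases such as TGL1 (YKL140W). ARE1 was below 0 on all 6 arrays, at -0.42, -4.38 and -0.48 in stationary and -0.31, -0.31 and -0.06 in mid-exponential phase. The value of -4.38 came from 1 spot, and it accounts for the stationary mean of -1.76 ± 2.27 (SD, n = 3, limma adjusted p = 0.218). In the authors' deposited table ARE1 was at -0.18 in stationary phase (adjusted p = 0.551). ARE2, the acyltransferase for ergosterol itself, had -1.03 and 0.16 on stationary arrays 1 and 3 and 0.06, -0.69 and -0.96 on the mid-exponential arrays. TGL1 was read from the well 1 column on from the one named, because the names in its plate row appeared shifted. Read there, TGL1 had 2.59 and -1.40 on stationary arrays 1 and 2 and -0.12, -0.42 and -0.51 on the mid-exponential arrays. The authors' deposited table listed TGL1 at 0.13 in stationary (adjusted p = 0.720) and -0.19 in mid-exponential phase (adjusted p = 0.353). HES1 (YOR237W), of the oxysterol-binding protein family, had -0.13, -0.76 and -0.12 on the stationary arrays and 0.29, 2.36 and -0.04 on the mid-exponential arrays. As in SUT1, its highest value lay on mid-exponential array 2.

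**Figure D3:**
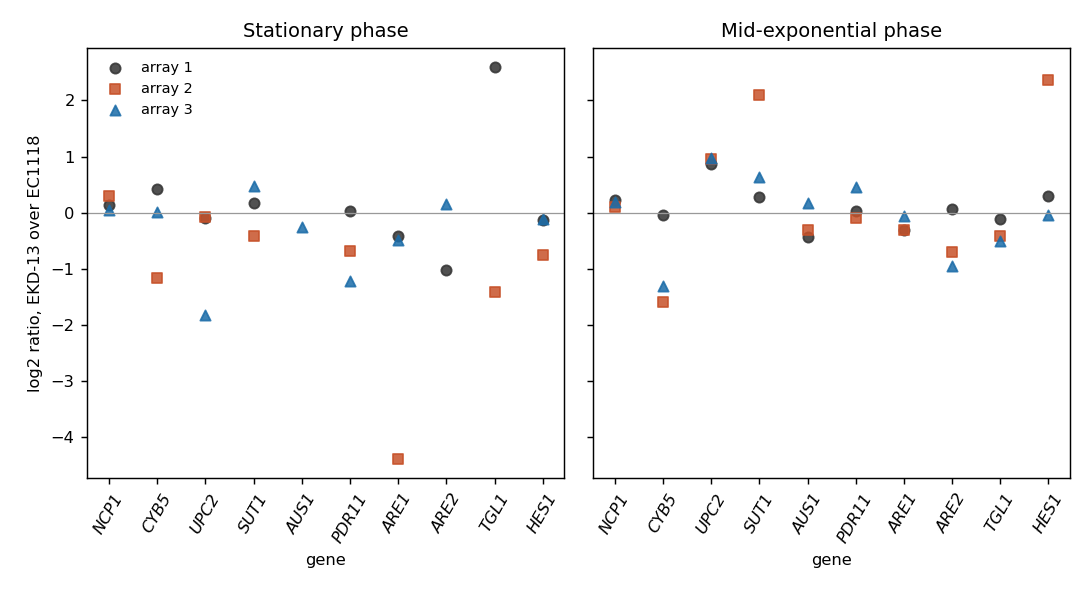
Log2 ratios of EKD-13 over EC1118 for the 10 sterol genes outside the synthesis route (horizontal axis), with 1 marker per array, in stationary phase (left) and mid-exponential phase (right); AUS1, ARE2 and TGL1 lacked ratios on some stationary arrays. UPC2 lies at 0.87 to 0.97 on the mid-exponential arrays, while single arrays set the extremes of ARE1, TGL1, SUT1 and HES1.

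In the limma fit none of the 28 tested sterol genes passed at an adjusted p under 0.05 in stationary phase, where 4.76% of all genes tested did. None passed in mid-exponential phase either, against 0.21% of all genes. By the unadjusted p under 0.05, 1 of 28 stood out in stationary phase, ERG4, against 24% of all genes. In mid-exponential phase 5 of 28 did, namely IDI1, ERG4, CYB5, UPC2 and SUT1, against 13.3% of all genes. Below 0 on all 3 stationary arrays were 5 of 26 sterol genes, ERG12, ERG4, UPC2, ARE1 and HES1, against 19.9% of all genes with 3 ratios. On the mid-exponential arrays 5 of 28 were, ERG12, IDI1, ERG4, CYB5 and ARE1, against 26%. Above 0 on all 3 mid-exponential arrays were 3 of 28, NCP1, UPC2 and SUT1, against 24.9%. The share of the sterol genes was above that of all genes in 1 of these counts, the unadjusted one in mid-exponential phase.

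The authors' deposited table, a limma fit of their own on all 6388 genes, held more calls. At an adjusted p under 0.05, 6 of the 30 sterol genes were lower in mid-exponential phase in the authors' deposited table, against 4.63% of all genes. In the authors' deposited table these were IDI1 at -0.82 (adjusted p = 0.0090), CYB5 at -0.77 (0.0135), ERG5 at -0.75 (0.0495), ERG2 at -0.70 (0.0427), ERG25 at -0.68 (0.0440) and ERG4 at -0.37 (0.0367). The single sterol gene higher there was UPC2, at 0.50 (adjusted p = 0.0305), where the authors' deposited table had 5.67% of all genes higher. For stationary phase the authors' deposited table had 1 of 30 lower, ERG4 at -0.40 (adjusted p = 0.0344), against 2.14% of all genes, and 0 of 30 higher, against 2.04%. The authors' deposited table gave the same sign as the mean of the arrays for all 20 synthesis genes in mid-exponential phase, and put 19 of 20 below 0 in stationary phase, ERG10 being the exception at 0.16. Of all genes in the authors' deposited table, 54.6% were below 0 in mid-exponential and 47.5% in stationary phase.

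**Figure D4:**
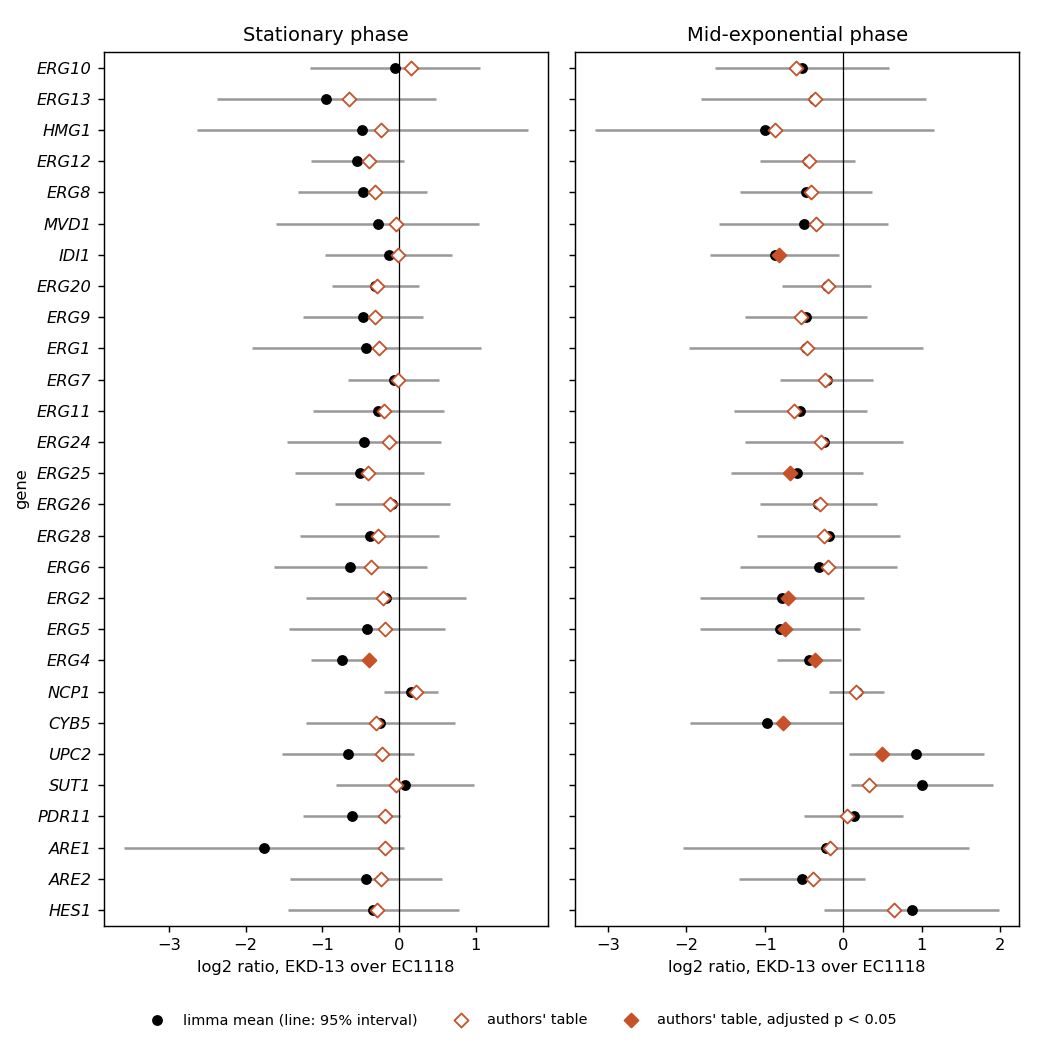
Black points are limma means of the log2 ratio of EKD-13 over EC1118 with their 95% intervals (lines) for the 28 tested sterol genes, in stationary phase (left) and mid-exponential phase (right); diamonds are the values of the authors' deposited table, filled where its adjusted p was under 0.05. The 20 synthesis genes have black points left of 0 in both phases, and filled diamonds appear for ERG4 in stationary phase and for 7 genes in mid-exponential phase.

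The difference between phases, stationary minus mid-exponential, passed in none of the 28 sterol genes, against 0.117% of all genes. By the unadjusted p under 0.05, UPC2 alone of the 28 stood out, against 12.8% of all genes, at -1.60 ± 0.50 (SE) with a limma adjusted p of 0.287. Opposite signs in the 2 phases on all arrays were found for UPC2 as well, 1 of 26 sterol genes, against 5.36% of all genes. For the synthesis genes the median difference was 0.06. The interval of a single gene stayed wide: for ERG4, with one of the narrowest, the difference of -0.31 ± 0.24 had a 95% interval from -0.88 to 0.27.

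Of 44 other sterol and isoprenoid genes, 37 could be tested by limma. In stationary phase 2 of the 37 passed, a share near the 4.76% over all genes tested. ATF2, an acetyltransferase that also acetylates sterols, rose, and OSH2, an oxysterol-binding protein homologue, fell. ATF2 had 3.33, 1.19 and 2.10 on the stationary arrays, a limma mean of 2.21 ± 0.39 (SE, n = 3, adjusted p = 0.036), against 0.85, 0.16 and 0.71 on the mid-exponential arrays. OSH2 had -1.77, -0.65 and -2.03 on the stationary arrays, a limma mean of -1.49 ± 0.28 (SE, n = 3, adjusted p = 0.040), against 0.05, -0.14 and 0.15 on the mid-exponential arrays. With the replicate block the limma adjusted p was 0.114 for ATF2 and 0.132 for OSH2, and ATF2 passed under 9 and OSH2 under 6 of 17 alternatives. The authors' deposited table put ATF2 at 0.47 in stationary phase (adjusted p = 0.012) and OSH2 at -0.47 (adjusted p = 0.052). None of the 37 passed in mid-exponential phase or for the difference between phases. PRY1, a secreted protein that binds sterols, was below 0 on all 6 arrays, at -0.68, -0.96 and -0.60 in stationary and -1.18, -0.75 and -0.94 in mid-exponential phase. The authors' deposited table listed PRY1 at -0.66 in stationary and -0.90 in mid-exponential phase with adjusted p of 0.0008 and 0.0007, while the limma fit gave adjusted p of 0.062 and 0.103.

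HMG2, ERG3, ERG27 and ECM22 are synthesis and regulator genes of chromosome XII, whose genes stood higher as a group, and they were above 0 on most arrays. HMG2, the second HMG-CoA reductase, had 0.09, 0.61 and 0.36 on the stationary arrays and 0.33, 0.50 and 0.76 on the mid-exponential arrays. ERG3, a sterol desaturase, had 0.40, 0.11 and 1.11 on the stationary arrays and 0.77, -0.20 and 0.59 on the mid-exponential arrays. ERG27, a sterol keto-reductase, had 0.94, -1.24 and 1.47 on the stationary arrays and 0.99, 0.64 and 0.45 on the mid-exponential arrays, so it was below 0 on stationary array 2, as ERG3 was on mid-exponential array 2. ECM22, a relative of UPC2, had 0.61, 0.82 and 0.94 on the stationary arrays and 0.50, 0.36 and 0.87 on the mid-exponential arrays. The median of their means was 0.46 in stationary and 0.55 in mid-exponential phase. In the authors' deposited table ECM22 was higher in stationary phase, at 0.41 (adjusted p = 0.047), and ERG27 in mid-exponential phase, at 0.48 (adjusted p = 0.010). Elsewhere among the 44, the authors' deposited table had YEH2 and ATF2 higher in both phases, YSP2 higher in stationary phase, and HRD3 and LAM6 higher in mid-exponential phase. YEH2, HRD3 and LAM6 lie on chromosome XII too. So do ARV1, with ratios only in mid-exponential phase, at 0.85, 1.37 and 1.77, and the steryl ester hydrolase gene YEH1. YEH1 was below 0 on 4 of 6 arrays, at -0.04, -1.64 and 0.61 in stationary and 1.04, -0.42 and -0.52 in mid-exponential phase.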

How the data were processed

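Two-colour arrays compared EKD-13 with EC1118, 3 per phase. The authors deposited a log2 ratio for each spot of an array, for which the submitters' processing notes name R 2.9.2 and limma. How background, normalization and spot filtering were handled is not given in the sources used here. Per the file headers, the authors' tables for the 2 phases give each gene's log2 fold change, mean log2 intensity and moderated t (a score). They also give its p-value, raw and adjusted, and the stationary table a linear fold, per the file headers.

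Spots were named through their plate wells and averaged by gene. The names of 228 genes in row E of plates 10 to 19 appeared shifted. Over bright genes, ratios there correlated with the authors' deposited log2 values at 0.303 in stationary and 0.407 in mid-exponential phase as named, at 0.846 and 0.970 with wells read 1 column on (or at the same or a repeated name where the shift restarts), and at 0.698 and 0.969 in other wells. These genes were left out, and TGL1 is given from the shifted well, a choice made after seeing the data.

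All 6 arrays entered a limma 3.58.1 model (R 4.3.3) with a mean per phase and no dye term, tested two-sided against 0 for genes with at least 2 ratios per phase, with Benjamini-Hochberg adjustment over 4289 genes. There were 4 residual and 2.28 prior degrees of freedom. Each gene had a single spread over both phases, so the SE, interval and p of a phase also reflect the scatter of the other phase. The script was tested on simulated data with independent arrays and a single spread per gene. That test does not cover cultures shared between phases or spreads that differ between phases. Same-numbered arrays deviated from their phase means with correlations of 0.082, 0.214 and -0.048 over 3020 genes, so the model had no block. By the labels, however, same-numbered arrays share both cultures (array 3) or 1 of them (arrays 1 and 2) between phases, which the model does not take into account, and the fit with the replicate number as a block is given where it changes a call. Within a phase the cultures were separate. Tables used Python 3.11.15, pandas 2.3.3 and numpy 2.4.6, and figures matplotlib 3.10.9. Alternatives were a single spread for all arrays, median centring, a dye term, complete or brighter genes only, separate fits, the authors' table, row E kept, a replicate block, each array left out, and no chromosome XII. All 30 sterol genes are named, other sterol genes where they passed here or in the authors' table, and HMG2, ERG3, ERG27 and ECM22 of chromosome XII. ARV1 and YEH1 were added after their values were seen. The genes, lists and alternatives were chosen with earlier results of these data known. Symbols come from the RefSeq table, which held 5849 of 6388 genes. No promoter or protein sequences were used here.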

Additional observations from a re-analysis of the deposited data

Results flagged for a closer look

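UPC2, the activator of sterol synthesis and uptake genes, had all 3 stationary ratios below 0 and all 3 mid-exponential ratios above 0, at -0.09, -0.08 and -1.82 in stationary and 0.87, 0.95 and 0.97 in mid-exponential phase. The difference of stationary minus mid-exponential was -1.60 on the log2 scale, with a limma adjusted p of 0.287 and an unadjusted p of 0.018. Values in the authors' deposited table lay closer together, at -0.23 in stationary (adjusted p = 0.302) and 0.50 in mid-exponential phase (adjusted p = 0.0305). Without stationary replicate 3 the difference of UPC2 was -1.02, and its adjusted p lay between 0.158 and 0.629 over the alternatives.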

How the results depend on the processing

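Over the alternatives none of the 28 sterol genes passed the limma test in either phase or for the difference between phases, except in the authors' deposited table, which called 1 in stationary and 7 in mid-exponential phase. The median of the sterol genes was -0.42 in stationary phase and reversed to 0.07 without replicate 2, within -0.58 to 0.07 over leave-one-out fits; in mid-exponential phase it kept its sign, from -0.73 to -0.25. Single genes with no call changed sign in 60 of 1354 comparisons, and 13 of 28 in stationary and 25 of 28 in mid-exponential phase kept their sign under every alternative. Many of these comparisons could not change a sign, since leaving out other genes or an array of the other phase keeps a gene's mean. The 60 of 1354 therefore says little about how stable the signs were. Without stationary replicate 2, 12 of 27 sterol genes averaged below 0 in stationary phase, beside 47.5% of all genes. In the main fit it was 26 of 28, beside 51.5%.

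The number of all genes called, 204 in stationary, 9 in mid-exponential phase and 5 for the difference, depended more on the processing. With arrays brought to one spread, 27 were called in stationary and 177 in mid-exponential phase. With a dye term the 3 counts were 72, 1 and 2, and with the replicate block, since the numbers pair cultures in part, 0, 0 and 1. Unadjusted p-values under 0.05 under the replicate block numbered 847 in stationary and 479 in mid-exponential phase. Separate limma fits per phase called 0 in each, with 539 unadjusted p-values under 0.05 in stationary and 1022 in mid-exponential phase. Without chromosome XII 113 were called in stationary and 2 in mid-exponential phase, and without dim genes 3 for the difference. The authors' deposited table called 658 in mid-exponential phase. Leaving out single arrays gave 6 to 355 in stationary, 0 to 15 in mid-exponential phase and 1 to 21 for the difference, with the highest counts each time without stationary replicate 2. The causes were not tested.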

Other observations

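Outside the 30 sterol genes, 53 genes had the same order of arrays with the same gaps, stationary array 2 at least 1 log2 unit under the other stationary arrays and mid-exponential array 1 at least 0.5 above its own. They were sought after the pattern had been seen and are given as a description. From the lists of other sterol and isoprenoid genes they included DAP1, a haem-binding protein of sterol synthesis, the repressor genes ROX1 and MOT3, the steryl ester hydrolase gene YEH1, and COQ2 of ubiquinone synthesis. ROX1 had -0.29, -1.34 and -0.10 on the stationary arrays and 0.37, -0.90 and -0.83 on the mid-exponential arrays. DAP1 had -0.11, -1.59 and -0.17 on the stationary arrays and 0.15, -0.95 and -0.72 on the mid-exponential arrays.

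Others of the 53 were picked by hand, after their values were seen, because they are known for haem, iron, oxygen or acetyl-CoA. The 53 also held genes not picked for such a role, among them PUT4, SCM4, BFR2 and JJJ1. The share of genes with such a role was not counted, so the choice shows no theme of the list. CYC1, cytochrome c, had -0.44, -1.73 and -0.09 on the stationary arrays and 0.26, -1.70 and -1.96 on the mid-exponential arrays. HMX1, haem oxygenase, had 0.79, -1.92 and 0.41 on the stationary arrays and 0.48, -2.94 and -0.66 on the mid-exponential arrays. The ferric reductase gene FRE1 had 0.88, -3.13 and 2.07 on the stationary arrays and 1.70, 0.06 and -0.61 on the mid-exponential arrays. ACS2, acetyl-CoA synthetase, had 0.52, -0.69 and 1.85 on the stationary arrays and 1.06, 0.50 and 0.19 on the mid-exponential arrays. FRE1, HMX1, YEH1 and ACS2 lie on chromosome XII. No enrichment was tested.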
